A study of Mus musculus with 9 samples.

Results

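Transcripts for the uptake and burning of butyrate, and for the making of ketone bodies, were described in the mouse colon epithelium, sorted into 3 populations. The 8 genes were taken by symbol from a table of 24421: the carriers Slc16a1 and Slc5a8, the acyl-CoA synthetases Acsm3 and Acsl1, the carnitine acyltransferase Cpt1a, the beta-oxidation enzymes Acads and Hadh, and the ketone body enzyme Bdh1. All 8 were measured and passed the filter on low values. They were chosen with earlier results of these data known. The cells came from untreated adult female C57BL/6J mice, for which the labels name no transgene or mutation. The enterocyte-enriched population (Epcam+, Cd44-neg, Cd66a-high) came from the top of the crypt. The goblet-enriched population (Epcam+, Cd44+, Kit+) and the Lgr5-enriched population (Epcam+, Cd44+, Kit-neg) came from its bottom. Each has 3 RNA-seq libraries, and the series describes 3 independent mice. The gates are surface antigens and leave other epithelial cells in each population, so each is enriched rather than pure.

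Butyrate is a short-chain fatty acid that gut bacteria make from fibre, and it is known as a main fuel of colonocytes. It enters the cell on monocarboxylate carriers, is joined to coenzyme A, and is shortened in the mitochondrial matrix by beta-oxidation without needing the carnitine shuttle that long-chain fatty acids use. The acetyl-CoA formed can enter the citric acid cycle or be turned into ketone bodies.

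Most of these transcripts were lowest in the goblet-enriched population. With TPM, most did not differ detectably between the enterocyte-enriched and Lgr5-enriched populations. That depended on the scaling: most passed the test there with median-of-ratios scaling, which sets the typical gene equal between libraries. Of the 8 genes, 7 were higher and 1, Acsl1, was lower in enterocyte-enriched than in goblet-enriched libraries, where 15.9% of all tested genes were higher and 28.2% lower. Of the 8, 2 passed the test as higher in enterocyte-enriched than in Lgr5-enriched libraries, Slc16a1 and Cpt1a, where 12% of all tested genes were higher. Acsm3 averaged 177 ± 45.0 TPM in enterocyte-enriched, 24.5 ± 16.8 TPM in goblet-enriched and 323 ± 61.7 TPM in Lgr5-enriched libraries (SD, n = 3 each). The highest and the lowest mean thus both lay in populations from the crypt bottom. The difference of enterocyte-enriched from Lgr5-enriched libraries did not pass the test (-0.88 on the log2(TPM + 1) scale, limma adjusted p = 0.238), although the values did not overlap. It passed with the 6 libraries of the pair alone (limma adjusted p = 0.0207) and without goblet-enriched replicate 1 (limma adjusted p = 0.0113). Leaving out replicate 1 of all populations also made it pass (limma adjusted p = 0.00241). TPM is transcripts per 1000000, a level corrected for transcript length, so that genes can be compared with each other. In bulk samples such as these, fewer cells of a type and less RNA per cell cannot be told apart.

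The recovered depth was 11.2 to 26.8 M reads per library (M, times 1000000), and the 8 genes had 87 reads (Acsm3, goblet-enriched replicate 1) to 12969 reads (Slc5a8, enterocyte-enriched replicate 2), so counting error was small beside the spread between libraries. By their sums, colonocyte, goblet and stem cell markers were each highest in the population labelled for them, although some single markers were not. Summed over 8 colonocyte markers, enterocyte-enriched libraries held 5314 to 9102 TPM, goblet-enriched libraries 552 to 1034 TPM and Lgr5-enriched libraries 199 to 300 TPM. Summed over 9 goblet markers, the range was 14529 to 22782 TPM in enterocyte-enriched, 45634 to 62390 TPM in goblet-enriched and 1502 to 1666 TPM in Lgr5-enriched libraries. Of the 9, Zg16 averaged 5481 ± 2152 TPM in enterocyte-enriched and 345 ± 223 TPM in goblet-enriched libraries, and Tff3 1918 ± 677 and 1120 ± 89.0 TPM (SD, n = 3 each). Fcgbp (1454 ± 625 and 1247 ± 813 TPM) and Clca1 (2756 ± 865 and 2770 ± 2341 TPM) overlapped between enterocyte-enriched and goblet-enriched libraries. All 9 reached 1 TPM in each population, and the part of goblet transcripts in the enterocyte-enriched values was not tested. Summed over 7 stem cell markers, the range was 38.0 to 60.1, 152 to 228 and 433 to 535 TPM in enterocyte-enriched, goblet-enriched and Lgr5-enriched libraries, although Tnfrsf19 averaged 4.79 ± 1.90 TPM in goblet-enriched and 1.03 ± 0.298 TPM in Lgr5-enriched libraries. Summed over 6 enteroendocrine markers, the range was 145 to 236, 12.8 to 78.2 and 155 to 295 TPM in enterocyte-enriched, goblet-enriched and Lgr5-enriched libraries, lowest in goblet-enriched libraries as were most of the 8 genes. Summed over 5 tuft cell markers it was 2.33 to 4.77, 5.95 to 39.3 and 1.93 to 4.31 TPM. The part of enteroendocrine and tuft cells was not tested. Of 7 leukocyte markers, 3 reached 1 TPM in enterocyte-enriched libraries and the other 4 did not. The sum of the 7 was 15.5 to 239 TPM there, of which Lyz2 made 232, 133 and 12.9 TPM in replicates 1 to 3, against 4.17 to 16.1 TPM in goblet-enriched and 2.99 to 17.1 TPM in Lgr5-enriched libraries. Cd3e and Cd79a were listed at 0 in goblet-enriched libraries, and the part of leukocytes was not tested. The library labelled enterocyte-enriched replicate 1 went against the label of its sex (female): Xist stood at 0.128 TPM and 4 Y-linked genes summed to 139 TPM, against 110 to 204 TPM and at most 0.325 TPM in the other 8 libraries. The enterocyte-enriched differences of the 8 genes are also given without it. Lgr5-enriched replicate 1 had 49046 TPM of the pre-ribosomal RNA Rn45s, against 2356 to 6009 TPM elsewhere.

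Promoter windows are shown for the genes at the ends of the range in pattern. Of the 8 genes, Slc16a1 had the highest and Acsm3 the lowest enterocyte-enriched mean relative to the Lgr5-enriched mean. Acsl1 was the only gene whose own highest mean lay in goblet-enriched libraries, and Cpt1a held the only motif match found. Each window runs from 250 bases before to 50 bases after the RefSeq start (GRCm38.p6) and is given 5′ to 3′ on the gene's plus strand. In the Slc16a1 (chr3:104638414-104638713), Acsm3 (chr7:119760673-119760972) and first Acsl1 (chr8:46470787-46471086) windows, capitals mark CpG dinucleotides. In the Cpt1a window (chr19:3323051-3323350), capitals mark the reverse complement of AGGTCA, the core motif of many nuclear receptors.
Slc16a1: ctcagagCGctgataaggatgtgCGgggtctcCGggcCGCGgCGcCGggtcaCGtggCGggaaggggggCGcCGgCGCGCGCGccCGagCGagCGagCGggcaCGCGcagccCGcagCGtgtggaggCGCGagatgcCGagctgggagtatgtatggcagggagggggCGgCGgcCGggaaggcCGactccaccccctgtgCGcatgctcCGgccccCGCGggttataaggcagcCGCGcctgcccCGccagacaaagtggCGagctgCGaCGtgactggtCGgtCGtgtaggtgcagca
Acsm3: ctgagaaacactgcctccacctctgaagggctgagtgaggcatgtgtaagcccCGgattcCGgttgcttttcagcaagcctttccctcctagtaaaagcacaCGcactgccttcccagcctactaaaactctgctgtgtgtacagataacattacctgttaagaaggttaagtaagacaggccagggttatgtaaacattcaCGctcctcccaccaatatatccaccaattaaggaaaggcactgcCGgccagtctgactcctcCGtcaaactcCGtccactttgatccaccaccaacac
Acsl1: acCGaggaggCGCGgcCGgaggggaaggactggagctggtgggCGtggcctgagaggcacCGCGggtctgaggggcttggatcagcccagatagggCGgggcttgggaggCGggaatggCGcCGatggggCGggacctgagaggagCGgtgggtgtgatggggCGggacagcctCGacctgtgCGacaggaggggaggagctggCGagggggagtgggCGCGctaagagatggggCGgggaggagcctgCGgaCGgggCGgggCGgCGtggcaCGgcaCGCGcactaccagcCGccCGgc
Cpt1a: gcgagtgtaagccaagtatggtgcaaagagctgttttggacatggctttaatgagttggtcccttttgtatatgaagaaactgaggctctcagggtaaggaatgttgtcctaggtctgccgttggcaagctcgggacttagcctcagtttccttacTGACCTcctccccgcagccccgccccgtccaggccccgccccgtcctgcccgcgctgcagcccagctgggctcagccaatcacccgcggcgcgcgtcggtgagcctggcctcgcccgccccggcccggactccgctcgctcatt

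The Slc16a1 window held 42 CpG dinucleotides, a number that 3.03% of the 32851 mouse promoter windows of the same length reached. The Acsm3 window held 7, which 52.1% of windows reached. The first Acsl1 window held 30 and the second, at an inner start of the same gene (chr8:46490716-46491015), held 4. The other genes lay between, with 22 in Cpt1a, 20 in Slc5a8, 17 in Acads and Hadh, and 7 and 17 in the windows of Bdh1. AGGTCA was searched on both strands and matched in the Cpt1a window alone, with 16.3% of all windows holding it. AGGTCA repeated after 1 base, which holds the first motif, as well as CAAAGTCCA (the HNF4 motif) and TTTATGG (the CDX motif) were in none of the 10 windows of the 8 genes, and in 0.0396%, 0.475% and 2.75% of all windows. These matches and gaps describe the letters in the windows and no more.

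Slc16a1 encodes MCT1, the proton-coupled carrier of lactate, ketone bodies and butyrate (chromosome 3, 104638668 to 104658462, plus strand, GRCm38). It stood at 291, 275 and 252 TPM in enterocyte-enriched replicates 1 to 3, at 43.5, 38.1 and 50.4 TPM in goblet-enriched replicates and at 96.9, 123 and 125 TPM in Lgr5-enriched replicates. The 3 populations did not overlap, with enterocytes highest and goblet cells lowest. Its mean in enterocyte-enriched libraries was 6.20 times the goblet-enriched and 2.37 times the Lgr5-enriched mean. On the log2(TPM + 1) scale the difference was 2.61 (SE 0.15, limma adjusted p = 2.37e-05) for enterocyte-enriched against goblet-enriched and 1.25 (SE 0.15, limma adjusted p = 0.000305) against Lgr5-enriched. For goblet-enriched against Lgr5-enriched it was -1.37 (SE 0.15, limma adjusted p = 0.00023). Without the library labelled enterocyte-enriched replicate 1 the first 2 differences were 2.56 and 1.20. The CpG-rich window printed above belongs to this gene.

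Slc5a8 encodes SMCT1, the sodium-coupled carrier of butyrate and other monocarboxylates (chromosome 10, 88885992 to 88929515, plus strand). It stood at 373, 353 and 371 TPM in enterocyte-enriched replicates 1 to 3, at 9.11, 19.6 and 33.3 TPM in goblet-enriched replicates and at 174, 265 and 275 TPM in Lgr5-enriched replicates. Here too the populations did not overlap, and relative to their mean the goblet-enriched values were the most spread. The enterocyte-enriched mean was 17.7 times and the Lgr5-enriched mean 11.5 times the goblet-enriched mean, both larger than the folds of Slc16a1. The difference of enterocyte-enriched from goblet-enriched libraries was 4.25 (SE 0.38, limma adjusted p = 6.94e-05), and that of goblet-enriched from Lgr5-enriched libraries was -3.61 (SE 0.38, limma adjusted p = 0.0002). Between enterocyte-enriched and Lgr5-enriched libraries it was 0.64 (SE 0.38, limma adjusted p = 0.182), which did not pass the test although the values did not overlap. It passed with median-of-ratios scaling, which sets the typical gene equal between libraries (1.06, limma adjusted p = 0.0414), with the 6 libraries of the pair alone (limma adjusted p = 0.0281) and without goblet-enriched replicate 1 (limma adjusted p = 0.0431). Without the library labelled enterocyte-enriched replicate 1 the differences of enterocyte-enriched libraries were 4.24 from goblet-enriched and 0.63 from Lgr5-enriched libraries. Goblet-enriched replicate 3, the highest of its population for Slc5a8, also had the most transcripts of the surface markers Car4 (32.2 TPM, against 0.270 and 0.583 TPM) and Slc26a3 (20.0 TPM, against 1.51 and 0.716 TPM). Without it the goblet-enriched mean of Slc5a8 was 14.3 TPM in place of 20.7 ± 12.1 TPM (SD, n = 3). In goblet-enriched replicates 1 to 3 the stem cell marker Lgr5 stood at 1.00, 6.72 and 7.72 TPM. Ascl2, another stem cell marker, stood at 1.63, 12.0 and 6.84 TPM. Both were lowest in replicate 1, as was Slc5a8. The part of surface cells and of Lgr5 cells in the goblet-enriched values was not tested.

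**Figure D1:**
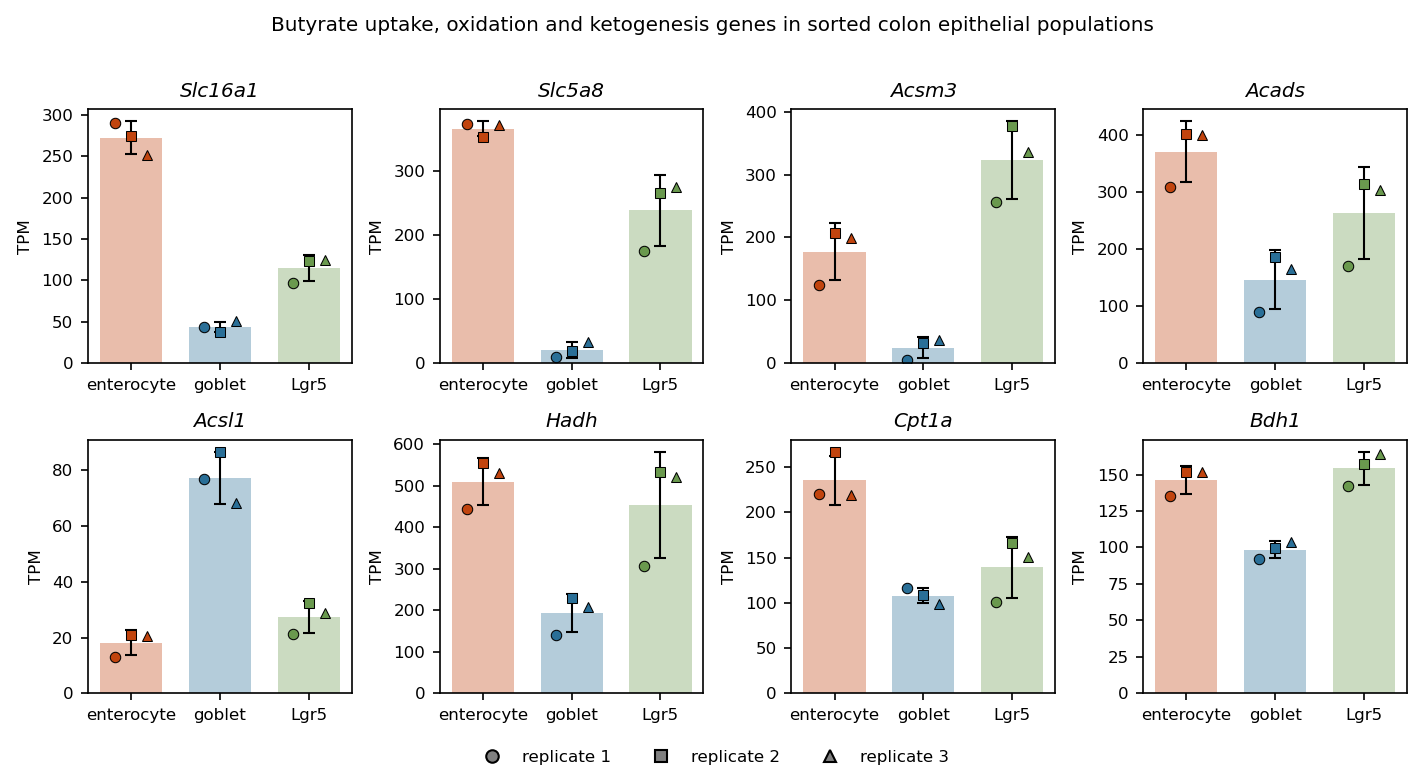
Levels of the 8 genes in TPM (vertical axis) in the enterocyte-enriched, goblet-enriched and Lgr5-enriched populations. Bars are means, error bars are SD over 3 libraries, and symbols are the libraries by replicate number. Goblet-enriched means are lowest for 7 genes and highest for Acsl1, and replicate 1 of the Lgr5-enriched population is its lowest library for all 8.

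The balance of the 2 carriers differed between populations. Within a library, the ratio of Slc5a8 to Slc16a1 was 1.28 to 1.47 in enterocyte-enriched, 0.210 to 0.662 in goblet-enriched and 1.80 to 2.21 in Lgr5-enriched libraries. A ratio within a library does not depend on the scaling between libraries, and these ranges did not overlap. Slc16a1 was thus the more abundant carrier transcript in each goblet-enriched library and Slc5a8 in each of the other 6.

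Acsm3 encodes a mitochondrial acyl-CoA synthetase of the medium-chain family that acts on short acids such as butyrate (chromosome 7, 119760923 to 119787513, plus strand). It stood at 125, 207 and 199 TPM in enterocyte-enriched replicates 1 to 3, at 5.34, 31.5 and 36.8 TPM in goblet-enriched replicates and at 256, 377 and 336 TPM in Lgr5-enriched replicates. The Lgr5-enriched values lay above all enterocyte-enriched ones, and the goblet-enriched values lay far below both. The enterocyte-enriched mean was 7.21 times and the Lgr5-enriched mean 13.1 times the goblet-enriched mean. The difference was 3.13 (SE 0.58, limma adjusted p = 0.0026) for enterocyte-enriched against goblet-enriched, or 3.36 without the library labelled enterocyte-enriched replicate 1. Goblet-enriched libraries differed from Lgr5-enriched libraries by -4.01 (SE 0.58, limma adjusted p = 0.00114). Both depended in size on goblet-enriched replicate 1, the lowest library, without which they were 2.31 and -3.19 and still passed. Between enterocyte-enriched and Lgr5-enriched libraries the difference was -0.88 (SE 0.58, limma adjusted p = 0.238). It passed in 3 alternatives: with the 6 libraries of the pair alone (limma adjusted p = 0.0207), with goblet-enriched replicate 1 left out (limma adjusted p = 0.0113) and with replicate 1 of all populations left out (limma adjusted p = 0.00241). Without the library labelled enterocyte-enriched replicate 1 it was -0.65. Acsm3 shares 747 exon bases with Eri2 on the opposite strand, at a mean of 8.30 TPM, and whether counting used the strand is not given in the sources used here.

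Acsl1 encodes a long-chain acyl-CoA synthetase, which prepares long-chain fatty acids for oxidation or for lipid synthesis (chromosome 8, 46471037 to 46536051, plus strand). It ran opposite to the other 7 genes. It stood at 13.1, 21.0 and 20.5 TPM in enterocyte-enriched replicates 1 to 3, at 76.8, 86.7 and 68.2 TPM in goblet-enriched replicates and at 21.2, 32.6 and 28.8 TPM in Lgr5-enriched replicates. The goblet-enriched mean was 4.24 times the enterocyte-enriched and 2.81 times the Lgr5-enriched mean, with no overlap. The difference was -2.05 (SE 0.22, limma adjusted p = 0.000146) for enterocyte-enriched against goblet-enriched, or -1.84 without the library labelled enterocyte-enriched replicate 1. For goblet-enriched against Lgr5-enriched it was 1.47 (SE 0.22, limma adjusted p = 0.00126). Enterocyte-enriched values lay just below the Lgr5-enriched values, the closest pair being 21.0 TPM in enterocyte-enriched replicate 2 and 21.2 TPM in Lgr5-enriched replicate 1. That difference, -0.58 (SE 0.22, limma adjusted p = 0.0518), missed the threshold and passed in 6 of the 18 alternatives. Among these were the replicate number as a block, which compares libraries of the same number (limma adjusted p = 0.0126), the fit without Lgr5-enriched replicate 1 (limma adjusted p = 0.0233) and the fit without replicate 1 of all populations (limma adjusted p = 0.0217). The others were the block without the library labelled enterocyte-enriched replicate 1 (limma adjusted p = 0.0341), a filter of 5 TPM (limma adjusted p = 0.0481) and the fit without enterocyte-enriched replicate 2 (limma adjusted p = 0.0498). Without the library labelled enterocyte-enriched replicate 1 and with no block it was -0.37 (limma adjusted p = 0.166). It shrank to -0.18 with median-of-ratios scaling (limma adjusted p = 0.457).

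Cpt1a encodes the enzyme of the outer mitochondrial membrane that joins long-chain acyl groups to carnitine, the gate of long-chain fatty acid oxidation, which butyrate bypasses (chromosome 19, 3322334 to 3385733, plus strand). It stood at 220, 267 and 219 TPM in enterocyte-enriched replicates 1 to 3, at 116, 109 and 99.3 TPM in goblet-enriched replicates and at 101, 166 and 151 TPM in Lgr5-enriched replicates. Enterocyte-enriched values were above all others, while goblet-enriched and Lgr5-enriched values overlapped. The difference was 1.11 (SE 0.19, limma adjusted p = 0.00151) for enterocyte-enriched against goblet-enriched and 0.78 (SE 0.19, limma adjusted p = 0.00746) against Lgr5-enriched. These were 1.16 and 0.82 without the library labelled enterocyte-enriched replicate 1. For goblet-enriched against Lgr5-enriched it was -0.33 (SE 0.19, limma adjusted p = 0.188), and it passed without Lgr5-enriched replicate 1 (limma adjusted p = 0.0196) and without replicate 1 of all populations (limma adjusted p = 0.0119). The window with the AGGTCA match printed above is that of Cpt1a. Per length, the Cpt1a level was 10.7 to 16.8 times the Acsl1 level in enterocyte-enriched, 1.26 to 1.51 times in goblet-enriched and 4.77 to 5.24 times in Lgr5-enriched libraries, ranges that did not overlap. The 16.8 is that of the library labelled enterocyte-enriched replicate 1, and the others of its population stood at 12.7 and 10.7.

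Acads encodes short-chain acyl-CoA dehydrogenase, which takes the first step of beta-oxidation on butyryl-CoA (chromosome 5, 115110299 to 115119346, minus strand). It stood at 309, 401 and 400 TPM in enterocyte-enriched replicates 1 to 3, at 88.6, 185 and 165 TPM in goblet-enriched replicates and at 170, 314 and 303 TPM in Lgr5-enriched replicates. Replicate 1 was the lowest library in each population, and only enterocyte-enriched and goblet-enriched values did not overlap. The difference between these was 1.39 (SE 0.31, limma adjusted p = 0.00662), or 1.51 without the library labelled enterocyte-enriched replicate 1. Neither of the other differences passed. That of enterocyte-enriched from Lgr5-enriched libraries was 0.54 (SE 0.31, limma adjusted p = 0.182), and that of goblet-enriched from Lgr5-enriched libraries was -0.85 (SE 0.31, limma adjusted p = 0.0606). Both passed with the replicate number as a block (limma adjusted p = 0.0115 for enterocyte-enriched and 0.00216 for goblet-enriched libraries), also without the library labelled enterocyte-enriched replicate 1 (limma adjusted p = 0.00787 and 0.000109). Both passed, with no block, without replicate 1 of all populations (limma adjusted p = 0.0122 and 0.00141). The first also passed with median-of-ratios scaling (0.95, limma adjusted p = 0.0228) and the second without Lgr5-enriched replicate 1 (-1.14, limma adjusted p = 0.0211). With no block and without the library labelled enterocyte-enriched replicate 1 the first was 0.66 (limma adjusted p = 0.169).

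Hadh encodes the 3-hydroxyacyl-CoA dehydrogenase that takes the third step of beta-oxidation on short and medium chains (chromosome 3, 131233419 to 131272101, minus strand). It was the most abundant of the 8 transcripts in each population by its mean. It stood at 445, 554 and 531 TPM in enterocyte-enriched replicates 1 to 3, at 141, 229 and 208 TPM in goblet-enriched replicates and at 306, 533 and 522 TPM in Lgr5-enriched replicates. Goblet-enriched values lay below all others, and the other 2 populations overlapped. The difference was 1.42 (SE 0.25, limma adjusted p = 0.00201) for enterocyte-enriched against goblet-enriched, or 1.52 without the library labelled enterocyte-enriched replicate 1. Goblet-enriched libraries were below Lgr5-enriched libraries (-1.21, SE 0.25, limma adjusted p = 0.0062). Between enterocyte-enriched and Lgr5-enriched libraries it was 0.21 (SE 0.25, limma adjusted p = 0.516), which passed with median-of-ratios scaling (0.62, limma adjusted p = 0.0454) and was 0.30 without the library labelled enterocyte-enriched replicate 1.

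Relative to Acads, the activating enzyme Acsm3 differed more between populations than Hadh did. The ratio of Acsm3 to Acads was 0.406 to 0.516 in enterocyte-enriched, 0.0602 to 0.223 in goblet-enriched and 1.11 to 1.50 in Lgr5-enriched libraries. The ratio of Hadh to Acads was 1.33 to 1.44 in enterocyte-enriched, 1.24 to 1.59 in goblet-enriched and 1.70 to 1.79 in Lgr5-enriched libraries. The 2 beta-oxidation enzymes thus kept a ratio between 1.24 and 1.79 in all 9 libraries, whereas Acsm3 was above Acads in the Lgr5-enriched libraries and below it in the other 6.

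**Figure D2:**
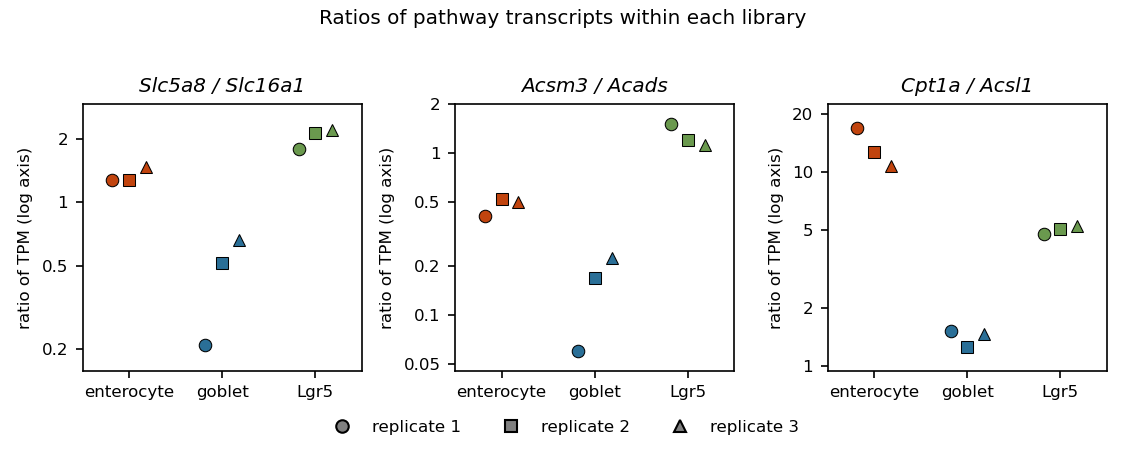
Ratios of 2 transcripts within each library (vertical log axes, ratio of TPM) for Slc5a8 to Slc16a1, Acsm3 to Acads and Cpt1a to Acsl1, by population. Symbols are libraries by replicate number. The populations do not overlap in any of the 3 ratios, and Cpt1a to Acsl1 is 10.7 to 16.8 in enterocyte-enriched against 1.26 to 1.51 in goblet-enriched libraries.

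Bdh1 encodes the mitochondrial dehydrogenase that interconverts acetoacetate and beta-hydroxybutyrate, the last step of ketone body synthesis and the first of their use (chromosome 16, 31422280 to 31458901, plus strand). It stood at 135, 152 and 152 TPM in enterocyte-enriched replicates 1 to 3, at 92.1, 99.5 and 104 TPM in goblet-enriched replicates and at 142, 157 and 164 TPM in Lgr5-enriched replicates. Goblet-enriched values were again below all others, and the difference from enterocyte-enriched libraries was the smallest of the 8 in size. The difference was 0.57 (SE 0.11, limma adjusted p = 0.00348) for enterocyte-enriched against goblet-enriched, or 0.62 without the library labelled enterocyte-enriched replicate 1. Goblet-enriched libraries were below Lgr5-enriched libraries (-0.64, SE 0.11, limma adjusted p = 0.00289). Enterocyte-enriched and Lgr5-enriched libraries overlapped, with a difference of -0.07 (SE 0.11, limma adjusted p = 0.601), or -0.02 without the library labelled enterocyte-enriched replicate 1. Its sign depended on the scaling: with median-of-ratios it was 0.34 (limma adjusted p = 0.0202).

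Read together, all 8 genes differed between enterocyte-enriched and goblet-enriched libraries, where 44.1% of the 12888 genes tested were called (15.9% higher and 28.2% lower). All 8 were called in each of the 18 alternatives, including the fit without the library labelled enterocyte-enriched replicate 1. Their median difference was 1.41, against -0.20 over all tested genes. Between enterocyte-enriched and Lgr5-enriched libraries 2 of 8 were called, both higher, where 49.6% of all tested genes were called (12% higher and 37.6% lower). With 8 genes, 2 calls are too few to place their share above or below the background. The number called also depended on the scaling, as given below. The median of the 8 was 0.37, against -0.35 over all genes. Between goblet-enriched and Lgr5-enriched libraries 6 were called, 1 higher and 5 lower, where 34.3% of all genes were called (10.7% higher and 23.6% lower), with a median of -1.03 against -0.26. The 3 comparisons share libraries pair by pair and are not independent. Because the 8 genes were chosen with earlier results of these data known, their counts and medians beside the background are descriptions and not a test.

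**Figure D3:**
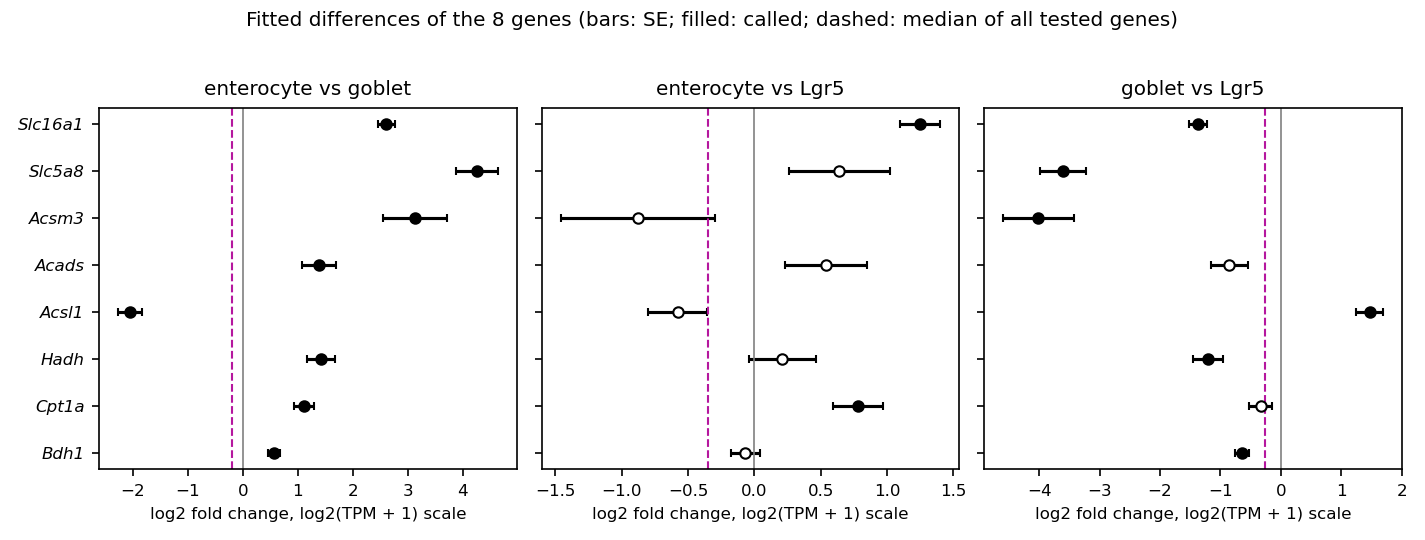
Fitted differences of the 8 genes (horizontal axis, log2(TPM + 1) scale, first-named population minus the second) with SE, for the 3 comparisons. Filled points passed the test, and the dashed line is the median of all tested genes. Acsl1 at -2.05 stands opposite to the other 7 in enterocyte-enriched against goblet-enriched, and only Slc16a1 and Cpt1a are filled in enterocyte-enriched against Lgr5-enriched.

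For the 8 genes, median-of-ratios scaling changed calls in enterocyte-enriched against Lgr5-enriched and in neither of the other comparisons, although over all genes it moved the balance of higher and lower calls in all 3. The median difference of all tested genes was -0.35 there with TPM and 0.02 with median-of-ratios scaling. It was -0.20 and -0.04 between enterocyte-enriched and goblet-enriched libraries, and -0.26 and -0.05 between goblet-enriched and Lgr5-enriched libraries. Higher genes made up 24.2% of the calls between enterocyte-enriched and Lgr5-enriched libraries with TPM and 54.5% with median-of-ratios (36.1% and 51.9% between enterocyte-enriched and goblet-enriched, 31.3% and 54.3% between goblet-enriched and Lgr5-enriched). With that scaling 6 of the 8 genes were called higher in enterocyte-enriched than in Lgr5-enriched libraries: Slc16a1, Slc5a8, Acads, Hadh, Cpt1a and Bdh1. With the replicate block 4 were called, Slc16a1, Acads and Cpt1a higher and Acsl1 lower. Without the library labelled enterocyte-enriched replicate 1, Slc16a1 and Cpt1a were again the 2 called. Acsm3 and Acsl1 were below 0 and the Slc16a1, Slc5a8, Acads and Cpt1a differences were above 0 in all 18 alternatives.

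**Figure D4:**
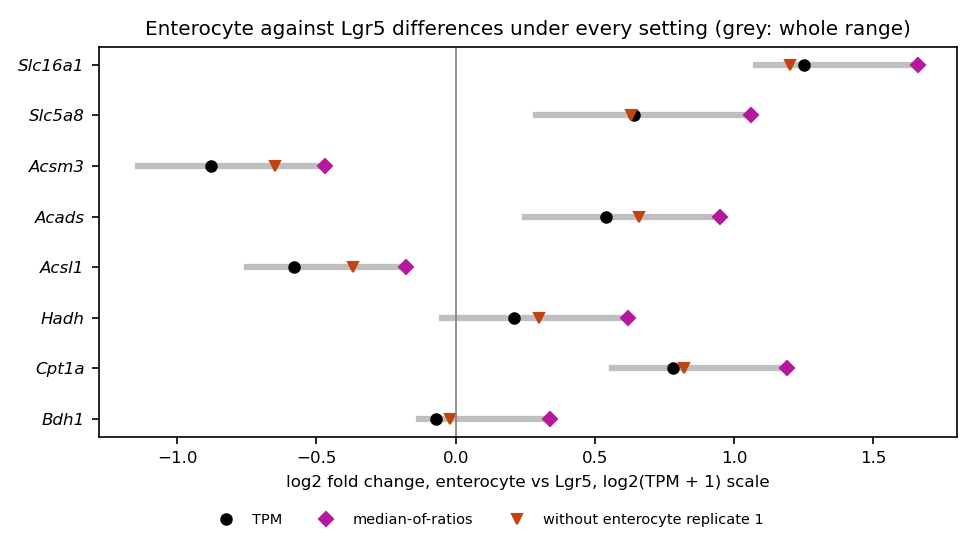
Difference of enterocyte-enriched from Lgr5-enriched libraries (horizontal axis, log2(TPM + 1) scale) for the 8 genes. Grey bars span all settings, black circles are TPM values, purple diamonds are median-of-ratios scaling and triangles are the fit without the library labelled enterocyte-enriched replicate 1. Only the bars of Hadh and Bdh1 cross 0, and the diamond of Bdh1 stands at 0.34.

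The summed level of the 8 genes was 1912 to 2229 TPM in enterocyte-enriched, 573 to 799 TPM in goblet-enriched and 1267 to 1967 TPM in Lgr5-enriched libraries. The lowest Lgr5-enriched sum was that of replicate 1, which was the lowest Lgr5-enriched library for all 8 genes. Over all tested genes, 52% were lowest in that library. Replicate 1 was lowest for 5 of 8 genes in the enterocyte-enriched and 5 of 8 in the goblet-enriched population, against 49.2% and 45.6% of all genes. Across the 9 libraries Hadh went most closely with Acads and Slc5a8 (Pearson's r of log2(TPM + 1) of 0.96 with each), and Acsm3 with Bdh1 (0.96). Acsl1 ran against the others, with r of -0.93 with Slc16a1 and -0.71 with Cpt1a. These values describe 9 libraries in 3 clusters of population that share depth and scaling, and no test was made of them.

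Among 9275 other genes with a mean of at least 10 TPM, the gene most like each of the 8 over the 9 libraries had r of 0.985 to 0.998. It was Sdhb for Slc16a1 (0.998), Cbr1 for Slc5a8 (0.995), Nqo1 for Acsm3 (0.992) and Ell3 for Acads (0.994). It was Ggcx for Acsl1 (0.993), Bnipl for Hadh (0.997), Tprgl for Cpt1a (0.985) and Adk for Bdh1 (0.993). Next were Elovl1 and Vps28 for Slc16a1, Fgfbp1 and Me2 for Slc5a8, and Cela1 and Rtfdc1 for Acads. For the others they were Slc38a10 and Entpd4 for Acsl1, Ociad2 and Thbs4 for Hadh, Ahcyl2 and Tnip1 for Cpt1a, and Acpp and Samm50 for Bdh1. With 3 populations such values are near 1 for any gene with the same order of levels, and nothing about function is read from them.

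The rest of the pathway was read from 8 lists of 69 genes, of which 54 were tested and 15 were under the filter. Of all tested genes, 15.9% were higher and 28.2% lower in enterocyte-enriched than in goblet-enriched libraries. These shares were 12% and 37.6% for enterocyte-enriched against Lgr5-enriched, and 10.7% and 23.6% for goblet-enriched against Lgr5-enriched libraries. The counts of calls in the lists stand beside these shares, and no list was tested as a set. Like the 8 genes, the lists were chosen with earlier results of these data known, so an excess over these shares is not a test. Among the other short-chain and medium-chain acyl-CoA synthetases, 3 of 8 genes were tested, and Acsm1, Acsm2 and Acsm5 were listed at 0 in all libraries. Acss1, a mitochondrial acetyl-CoA synthetase, averaged 78.2 ± 10.7 TPM in enterocyte-enriched, 129 ± 7.48 TPM in goblet-enriched and 120 ± 20.0 TPM in Lgr5-enriched libraries (SD, n = 3 each). It was lower in enterocyte-enriched than in goblet-enriched libraries (-0.72, limma adjusted p = 0.00502) and than in Lgr5-enriched libraries (-0.61, limma adjusted p = 0.00991), the second not with median-of-ratios scaling (limma adjusted p = 0.224). Acss2, its cytosolic relative, averaged 170 ± 17.4, 125 ± 26.3 and 254 ± 76.2 TPM in enterocyte-enriched, goblet-enriched and Lgr5-enriched libraries. It was lower in goblet-enriched than in Lgr5-enriched libraries (-0.99, limma adjusted p = 0.0129), not without Lgr5-enriched replicate 3 (limma adjusted p = 0.0538). Its means had the same order as those of Acsm3. Its enterocyte-enriched differences, 0.46 from goblet-enriched (limma adjusted p = 0.151) and -0.53 from Lgr5-enriched libraries (limma adjusted p = 0.0928), passed with the replicate block (limma adjusted p = 0.0215 and 0.0103).

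Of the 8 other carriers and partners, 5 were tested. Enterocyte-enriched libraries were higher for 3 and lower for 2 than goblet-enriched libraries, and higher for 3 and lower for 1 than Lgr5-enriched libraries. Goblet-enriched libraries were higher for 2 and lower for 1, Abcg2, than Lgr5-enriched libraries. The carriers Slc16a6 (MCT7) and Slc16a7 (MCT2) were goblet-weighted, opposite to Slc16a1. Slc16a6 stood at 1.52, 1.90 and 2.47 TPM in enterocyte-enriched replicates 1 to 3, at 12.9, 9.08 and 11.1 TPM in goblet-enriched replicates and at 4.27, 4.30 and 5.75 TPM in Lgr5-enriched replicates. Slc16a7 stood at 0.430, 0.779 and 0.864 TPM in enterocyte-enriched, 9.93, 13.9 and 10.4 TPM in goblet-enriched and 0.911, 2.22 and 2.20 TPM in Lgr5-enriched libraries. Goblet-enriched values lay above all others for both genes. The differences of enterocyte-enriched from goblet-enriched libraries were -2.02 for Slc16a6 (limma adjusted p = 0.000126) and -2.87 for Slc16a7 (limma adjusted p = 7.12e-05). Those of goblet-enriched from Lgr5-enriched libraries were 1.05 (limma adjusted p = 0.0051) and 2.19 (limma adjusted p = 0.000378). Even so, Slc16a1 was the more abundant transcript in the goblet-enriched libraries, at 44.0 ± 6.17 TPM against 11.4 ± 2.19 TPM for Slc16a7 (SD, n = 3 each).

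Abcg2, an efflux pump of the apical membrane, stood at 104, 58.1 and 50.9 TPM in enterocyte-enriched replicates 1 to 3, at 5.14, 5.17 and 8.78 TPM in goblet-enriched replicates and at 10.2, 13.9 and 20.5 TPM in Lgr5-enriched replicates. Enterocyte-enriched values were above all others, by 3.26 over goblet-enriched (limma adjusted p = 0.000121) and 2.17 over Lgr5-enriched libraries (limma adjusted p = 0.000874). Its difference of goblet-enriched from Lgr5-enriched libraries, -1.09 (limma adjusted p = 0.0322), did not pass in 6 of the alternatives, up to limma adjusted p = 0.117 without Lgr5-enriched replicate 3. Slc16a3 (MCT4) was low, averaging 3.13 ± 2.05 TPM in enterocyte-enriched, 0.747 ± 0.305 TPM in goblet-enriched and 0.815 ± 0.127 TPM in Lgr5-enriched libraries. The first mean was 1.95 TPM without the library labelled enterocyte-enriched replicate 1. It was higher in enterocyte-enriched than in goblet-enriched (1.15, limma adjusted p = 0.0179) and Lgr5-enriched libraries (1.08, limma adjusted p = 0.0204). The first call was lost when goblet-enriched replicate 2 was left out (limma adjusted p = 0.0603), the second when Lgr5-enriched replicate 1 (limma adjusted p = 0.0538) or replicate 1 of all populations (limma adjusted p = 0.0708) was left out. Bsg encodes basigin, the chaperone that takes MCT1 to the membrane, and was singled out after its values were seen. It stood at 975, 951 and 949 TPM in enterocyte-enriched replicates, at 500, 639 and 635 TPM in goblet-enriched replicates and at 512, 711 and 695 TPM in Lgr5-enriched replicates. It was higher in enterocyte-enriched than in both goblet-enriched (0.71, limma adjusted p = 0.0078) and Lgr5-enriched libraries (0.60, limma adjusted p = 0.0141), and it exceeded Slc16a1 in each library.

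In the list of long-chain acyl-CoA synthetases and the carnitine shuttle, 8 of 11 genes were tested. Enterocyte-enriched libraries were higher for 4 and lower for 1 than goblet-enriched libraries (2 and 1 without the library labelled enterocyte-enriched replicate 1), and higher for 3 and lower for 1 than Lgr5-enriched libraries. Goblet-enriched libraries were higher for 1 and lower for 3 than Lgr5-enriched libraries. The 3 became 0 with median-of-ratios scaling and 1 without goblet-enriched replicate 2 or Lgr5-enriched replicate 3. Slc25a20, the carnitine-acylcarnitine translocase of the inner membrane, had the largest differences of the list in both comparisons with enterocyte-enriched libraries. It stood at 270, 136 and 132 TPM in enterocyte-enriched replicates 1 to 3, at 18.8, 20.2 and 21.4 TPM in goblet-enriched replicates and at 21.6, 32.3 and 24.4 TPM in Lgr5-enriched replicates. Its enterocyte-enriched mean was 8.91 times the goblet-enriched and 6.87 times the Lgr5-enriched mean (3.01, limma adjusted p = 7.01e-05, and 2.67, limma adjusted p = 0.000202), and the second difference was 2.22 or more in all alternatives.

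Crat, carnitine acetyltransferase, averaged 44.1 ± 2.48 TPM in enterocyte-enriched, 26.3 ± 4.36 TPM in goblet-enriched and 23.7 ± 6.51 TPM in Lgr5-enriched libraries, and was higher in enterocyte-enriched than in Lgr5-enriched libraries (0.91, limma adjusted p = 0.00712). Acsl4, the relative of Acsl1 that prefers arachidonate, shared its direction: it averaged 9.52 ± 1.21, 22.4 ± 5.70 and 12.3 ± 3.11 TPM in enterocyte-enriched, goblet-enriched and Lgr5-enriched libraries. It was lower in enterocyte-enriched than in goblet-enriched libraries (-1.13, limma adjusted p = 0.00357) and higher in goblet-enriched than in Lgr5-enriched libraries (0.81, limma adjusted p = 0.0224), the second not without goblet-enriched replicate 1 (limma adjusted p = 0.0582), Lgr5-enriched replicate 2 (limma adjusted p = 0.0729) or Lgr5-enriched replicate 3 (limma adjusted p = 0.0833). Acsl5, a long-chain synthetase abundant in the intestine, averaged 119 ± 7.17, 132 ± 19.8 and 196 ± 50.7 TPM in enterocyte-enriched, goblet-enriched and Lgr5-enriched libraries. Its lower level in enterocyte-enriched than in Lgr5-enriched libraries (-0.69, limma adjusted p = 0.0126) did not pass with median-of-ratios scaling (limma adjusted p = 0.327), nor did its lower level in goblet-enriched than in Lgr5-enriched libraries (-0.55, limma adjusted p = 0.0454, and 0.303 with that scaling). Crot, the peroxisomal carnitine octanoyltransferase, averaged 44.4 ± 2.24, 34.2 ± 2.00 and 52.2 ± 1.77 TPM in enterocyte-enriched, goblet-enriched and Lgr5-enriched libraries. It was lower in goblet-enriched than in Lgr5-enriched libraries (-0.60, limma adjusted p = 0.00356), not with median-of-ratios scaling (limma adjusted p = 0.0576).

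All 15 other beta-oxidation genes were tested. Enterocyte-enriched libraries were higher for 10 and lower for 0 than goblet-enriched libraries, with a median of 0.62 against -0.20 over all genes, and higher for 11 without the library labelled enterocyte-enriched replicate 1. Against Lgr5-enriched libraries they were higher for 4 and lower for 1, with a median of 0.25 against -0.35. That count was 3 and 0 without the library labelled enterocyte-enriched replicate 1, 8 and 4 with the replicate block, and 10 and 0 with median-of-ratios scaling, and its 4 became 2 without enterocyte-enriched replicate 2. Goblet-enriched libraries were higher for 0 and lower for 7 than Lgr5-enriched libraries. The 7 became 4 with median-of-ratios scaling, 4 without goblet-enriched replicate 2 or 3, and 3 without Lgr5-enriched replicate 2 or 3. Acadm, medium-chain acyl-CoA dehydrogenase, averaged 183 ± 16.3 TPM in enterocyte-enriched, 73.6 ± 8.27 TPM in goblet-enriched and 128 ± 20.9 TPM in Lgr5-enriched libraries. It differed in all 3 comparisons: by 1.31 (limma adjusted p = 0.000212) between enterocyte-enriched and goblet-enriched, by 0.52 (limma adjusted p = 0.0175) between enterocyte-enriched and Lgr5-enriched, and by -0.78 (limma adjusted p = 0.00462) between goblet-enriched and Lgr5-enriched libraries. The second was not called without enterocyte-enriched replicate 2 (limma adjusted p = 0.0643).

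Acadl, which acts on long chains, averaged 252 ± 29.4, 158 ± 45.1 and 152 ± 15.9 TPM in enterocyte-enriched, goblet-enriched and Lgr5-enriched libraries. It was higher in enterocyte-enriched than in Lgr5-enriched libraries (0.72, limma adjusted p = 0.0123). Hadhb, the thiolase subunit of the trifunctional protein for long chains, averaged 100 ± 6.98, 54.2 ± 6.13 and 62.7 ± 5.60 TPM in enterocyte-enriched, goblet-enriched and Lgr5-enriched libraries and did likewise (0.67, limma adjusted p = 0.00247). Eci1, an enoyl-CoA isomerase, and Hsd17b10, a hydroxyacyl-CoA dehydrogenase, had their highest means, 117 ± 21.7 and 199 ± 20.4 TPM, in Lgr5-enriched libraries. Both were lower in goblet-enriched than in Lgr5-enriched libraries, Eci1 by -0.93 (limma adjusted p = 0.015) and Hsd17b10 by -0.78 (limma adjusted p = 0.00506). The first was not called without Lgr5-enriched replicate 2 (limma adjusted p = 0.051) or 3 (limma adjusted p = 0.0571). Hsd17b10 was also lower in enterocyte-enriched than in Lgr5-enriched libraries (-0.49, limma adjusted p = 0.0255), but not with median-of-ratios scaling (limma adjusted p = 0.635) nor without the library labelled enterocyte-enriched replicate 1 (limma adjusted p = 0.0752), Lgr5-enriched replicate 2 (limma adjusted p = 0.0788) or Lgr5-enriched replicate 3 (limma adjusted p = 0.0829).

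**Figure D5:**
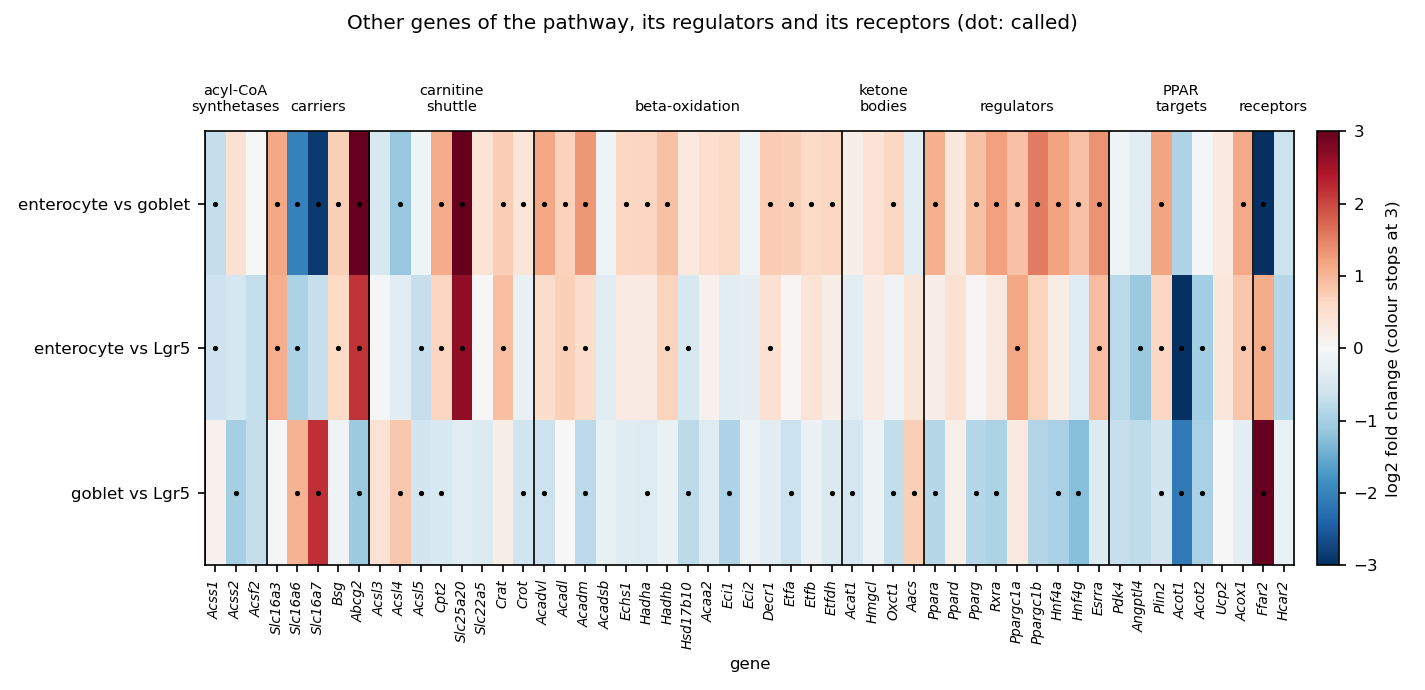
Differences of tested genes of the lists (columns) in the 3 comparisons (rows), coloured by log2 fold change on the log2(TPM + 1) scale with the colour stopping at 3. Dots mark genes that passed the test. Slc25a20 and Abcg2 are the deepest red in both enterocyte-enriched rows, and Ffar2 is the deepest red in goblet-enriched against Lgr5-enriched.

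Beside Bdh1, Oxct1, the transferase by which cells use ketone bodies, averaged 202 ± 43.3, 131 ± 23.5 and 216 ± 7.17 TPM in enterocyte-enriched, goblet-enriched and Lgr5-enriched libraries. It was lower in goblet-enriched than in Lgr5-enriched libraries (-0.73, limma adjusted p = 0.0125), not with median-of-ratios scaling (limma adjusted p = 0.103). Aacs, of the same list, went the other way and is named outside the naming rule. It averaged 163 ± 30.9, 209 ± 48.7 and 126 ± 24.8 TPM in enterocyte-enriched, goblet-enriched and Lgr5-enriched libraries. Its call as higher in goblet-enriched than in Lgr5-enriched libraries was lost in several alternatives, such as without goblet-enriched replicate 2 (limma adjusted p = 0.117).

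The regulators were all tested, 9 of 9. Of all tested genes, 15.9% were higher and 28.2% lower in enterocyte-enriched than in goblet-enriched libraries. Enterocyte-enriched libraries were higher for 8 and lower for 0 than goblet-enriched libraries (7 and 0 without the library labelled enterocyte-enriched replicate 1), with a median of 1.07. They were higher for 2 and lower for 0 than Lgr5-enriched libraries (4 and 0 with the replicate block, 7 and 0 with median-of-ratios scaling). Goblet-enriched libraries were higher for 0 and lower for 5 than Lgr5-enriched libraries, with a median of -0.86. The 5 became 3 without goblet-enriched replicate 1, Lgr5-enriched replicate 2 or Lgr5-enriched replicate 3, and 7 without Lgr5-enriched replicate 1. The 2 called higher with TPM in enterocyte-enriched than in Lgr5-enriched libraries were Ppargc1a and Esrra, a coactivator and a nuclear receptor. They are known as partners in mitochondrial gene expression, but other regulators joined them under the settings just named. Ppargc1a averaged 27.6 ± 3.37 TPM in enterocyte-enriched, 15.2 ± 5.31 TPM in goblet-enriched and 12.1 ± 3.28 TPM in Lgr5-enriched libraries (1.16 over Lgr5-enriched, limma adjusted p = 0.0073). Esrra averaged 210 ± 8.83, 83.5 ± 16.9 and 113 ± 32.0 TPM in enterocyte-enriched, goblet-enriched and Lgr5-enriched libraries (0.93 over Lgr5-enriched, limma adjusted p = 0.00822). Hnf4a, a nuclear receptor of intestinal identity, averaged 534 ± 87.8, 228 ± 4.07 and 456 ± 69.4 TPM in enterocyte-enriched, goblet-enriched and Lgr5-enriched libraries. Its relative Hnf4g averaged 30.0 ± 2.98, 16.2 ± 4.36 and 39.7 ± 2.73 TPM there. Both were lower in goblet-enriched than in Lgr5-enriched libraries, by -0.98 (limma adjusted p = 0.00179) and -1.27 (limma adjusted p = 0.00108).

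Targets of PPAR outside the pathway did not share 1 direction. Their share called lower in enterocyte-enriched than in Lgr5-enriched libraries was near the 37.6% of all tested genes. Of 7 tested of 8, enterocyte-enriched libraries were higher for 2 and lower for 0 than goblet-enriched libraries, and higher for 2 and lower for 3 than Lgr5-enriched libraries (2 and 2 without the library labelled enterocyte-enriched replicate 1). The 3 became 1 without Lgr5-enriched replicate 2, and the 2 higher became 1 without enterocyte-enriched replicate 2, Lgr5-enriched replicate 1 or Lgr5-enriched replicate 3. Goblet-enriched libraries were higher for 0 and lower for 3 than Lgr5-enriched libraries, and lower for 1 with median-of-ratios scaling or without enterocyte-enriched replicate 3, goblet-enriched replicate 1 or 3, or Lgr5-enriched replicate 2. Acot1, a cytosolic acyl-CoA thioesterase, stood at 0.935, 3.44 and 4.70 TPM in enterocyte-enriched replicates 1 to 3, at 4.39, 7.17 and 6.46 TPM in goblet-enriched replicates and at 31.8, 25.3 and 31.0 TPM in Lgr5-enriched replicates. The Lgr5-enriched values lay above all others (difference -3.05 for enterocyte-enriched libraries, limma adjusted p = 0.00033, and -2.13 for goblet-enriched libraries, limma adjusted p = 0.00268). Acot1 and its mitochondrial relative Acot2 are near-identical in sequence, so reads could be split between them. Acot2 averaged 9.63 ± 4.48, 9.60 ± 3.07 and 19.7 ± 4.80 TPM in enterocyte-enriched, goblet-enriched and Lgr5-enriched libraries. Its calls against Lgr5-enriched libraries (-1.02, limma adjusted p = 0.0295, for enterocyte-enriched and -0.98, limma adjusted p = 0.048, for goblet-enriched) were lost with median-of-ratios scaling (limma adjusted p = 0.123 and 0.0995) and without several single libraries, the one labelled enterocyte-enriched replicate 1 among them (limma adjusted p = 0.0993 for enterocyte-enriched). Angptl4, a secreted inhibitor of lipoprotein lipase, was low, at 0.552 ± 0.182, 0.966 ± 0.295 and 2.53 ± 1.31 TPM in enterocyte-enriched, goblet-enriched and Lgr5-enriched libraries. Its lower level in enterocyte-enriched than in Lgr5-enriched libraries (-1.11, limma adjusted p = 0.0154) was not called without Lgr5-enriched replicate 1 (limma adjusted p = 0.0519) or 2 (limma adjusted p = 0.0567).

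Of the receptors that sense butyrate and hydroxybutyrate at the cell surface, Ffar2 was goblet-weighted. It stood at 5.45, 6.36 and 11.2 TPM in enterocyte-enriched replicates 1 to 3, at 76.1, 110 and 101 TPM in goblet-enriched replicates and at 2.07, 2.70 and 4.02 TPM in Lgr5-enriched replicates. No population overlapped another. Enterocyte-enriched libraries differed from goblet-enriched libraries by -3.52 (limma adjusted p = 5.06e-05) and from Lgr5-enriched libraries by 1.11 (limma adjusted p = 0.00962). Goblet-enriched libraries exceeded Lgr5-enriched libraries by 4.63 (limma adjusted p = 9.71e-06). Goblet-enriched libraries thus had the highest level of this receptor and the lowest levels of both butyrate carriers. Hcar2, a receptor of beta-hydroxybutyrate, was low and overlapped between populations, at 0.962, 9.90 and 3.31 TPM in enterocyte-enriched replicates 1 to 3, 6.21, 8.27 and 4.27 TPM in goblet-enriched replicates and 7.08, 9.54 and 5.29 TPM in Lgr5-enriched replicates. No comparison was called. Without enterocyte-enriched replicate 2 the enterocyte-enriched mean was 2.14 TPM in place of 4.72 ± 4.63 TPM (SD, n = 3), and enterocyte-enriched libraries were called lower than goblet-enriched (-1.28, limma adjusted p = 0.0366) and Lgr5-enriched libraries (-1.48, limma adjusted p = 0.018). Ffar3 was under the filter, at 0 to 0.214 TPM in enterocyte-enriched, 0 to 1.79 TPM in goblet-enriched and 0 to 0.254 TPM in Lgr5-enriched libraries. Among the list genes whose enterocyte-enriched differences are given above as called, all but Hsd17b10 and Acot2 were also called without the library labelled enterocyte-enriched replicate 1.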

How the data were processed

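Messenger RNA of sorted cells was sequenced with a stranded poly-A kit on either of a pair of instruments, per the labels' protocols, which do not assign libraries to them. The deposited table holds 1 value per symbol and library. As its values show, the authors gave log2(TPM) for TPM of 1 or more and TPM minus 1 for less. Back-transformed, the deposited TPM sum to 1000000 in each library, with 0 per-sample columns unused. Cufflinks and mm10 are named in the submitters' processing notes, without versions. For the aligner, the annotation and the use of strand, the sources used here give nothing. Gene positions are from GENCODE and promoter windows from RefSeq, both on mm10.

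Depth was recovered from the step of 1 read, with whole reads for 18386 of 18396 genes (99.95%, tolerance 1e-06 of a read, trying gene lengths up to 20000 bases). They are lower bounds, since any common factor of length and reads is hidden. In a 1 kb gene, 1 read made 0.0958 to 0.208 TPM.

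log2(TPM + 1) was tested with limma 3.58.1 in R 4.3.3 (lmFit, eBayes with trend), with 1 mean per population over 9 libraries, no block, and 6 residual and 3.21 prior degrees of freedom. The 12888 genes that reached 1 TPM in 3 or more libraries were tested, two-sided. The threshold for a call was 0.05 after Benjamini-Hochberg adjustment in each comparison. The scale understates the change of low genes. On simulated data for enterocyte-enriched against Lgr5-enriched libraries, with 200 of 12888 genes changed, 81 were recovered at 2-fold and 181 at 4-fold, with 7 and 11 false calls. In the real data 6396 genes were called in that comparison. The adjustment is stricter when fewer genes change, so these recoveries do not give the sensitivity of the fit on the real data. The p-values measure the spread between these libraries, which may be in part technical.

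Whether equal replicate numbers pair libraries was checked from deviations from the population means. Libraries of the same number correlated at 0.194 to 0.601 (9 pairs), and libraries of different numbers at -0.520 to 0.166 (18 pairs). Deviations from a population mean cancel out within the population, so these ranges are not independent. The replicate number was used as a block in an alternative fit, although the labels do not say that a number is a mouse. Xist stood at 0.128 TPM in the library labelled enterocyte-enriched replicate 1, against 110 TPM in goblet-enriched and 150 TPM in Lgr5-enriched replicate 1. As labelled, number 1 can thus not be read as 1 mouse, and what libraries of the same number share was not tested. The fit with the block is an alternative, as are another pseudocount (0.1 TPM), no filter, a stricter filter (5 TPM), median-of-ratios scaling, the 6 libraries of a pair alone, leaving out each library, and leaving out replicate 1 of all populations. Another 2 were chosen after seeing the data: TPM without goblet markers, and the block without the library labelled enterocyte-enriched replicate 1. The 8 genes and the lists were chosen with earlier results of these data known. Named were, per list, up to 3 called genes with the largest difference between enterocyte-enriched and Lgr5-enriched libraries, up to 2 between goblet-enriched and Lgr5-enriched libraries, and all receptors. The 3 genes most like each of the 8 by Pearson's r were named among those with a mean of at least 10 TPM. A few list, marker and likeness genes that these rules would name are not reported here.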

Additional observations from a re-analysis of the deposited data

How the results depend on the processing

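Of 432 refitted differences of the 8 genes (24 differences under 18 alternatives, 2 of them chosen after seeing the data), 407 kept their direction and side of the threshold, 23 passed only in the alternative and 2 changed sign. The changes of sign were both in enterocyte-enriched against Lgr5-enriched, Hadh without Lgr5-enriched replicate 1 (-0.05, limma adjusted p = 0.85, and up to 0.35 when other single libraries were left out) and Bdh1 with median-of-ratios scaling (0.34, limma adjusted p = 0.0202). The cause was not tested. In that comparison 2 of the 8 genes were called by TPM, 6 with median-of-ratios scaling, 4 with the 6 libraries of the pair alone, 4 with the replicate block, 4 with the replicate block and without the library labelled enterocyte-enriched replicate 1, 5 without replicate 1 of all populations, and 2 to 4 when single libraries were left out, 4 being without goblet-enriched replicate 1. For goblet-enriched against Lgr5-enriched, 6 to 8 of the 8 were called when single libraries were left out. Over all genes, leaving out single libraries gave 2660 to 4598 calls in goblet-enriched against Lgr5-enriched in place of 4423, the lowest without Lgr5-enriched replicate 3. The block without the library labelled enterocyte-enriched replicate 1 gave 7660. Among the 24 differences the replicate block alone changed the call of Acads in both comparisons with Lgr5-enriched libraries and of Acsl1 in enterocyte-enriched against Lgr5-enriched, and of no other. Depth limits values below about 1 TPM, such as those of Slc16a3 and Ffar3, and not the 8 genes. With 3 libraries a population, a difference that missed the threshold is not shown to be absent.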
